A study of Homo sapiens with 6 samples.

Results

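The genes described here encode the machinery that builds and turns over actin filaments: the actin monomers and the proteins that bind them, the ARP2/3 complex and its activators, capping and severing proteins, formins, tropomyosins, nonmuscle myosin II, the membrane linkers of the ERM family, the bundling protein fascin and LIM kinase 1. They are 50 genes chosen by name, all of them found among the 50868 Ensembl identifiers listed in every library. RNA was sequenced from cultures labelled A549, a human lung adenocarcinoma line, transfected either with an siRNA against SF3B4 (3 libraries) or with a scramble control siRNA (3 libraries, called control siRNA). SF3B4 belongs to SF3b, a spliceosome module that helps U2 snRNP recognise intron branch points, and the design asks how gene expression differed after its depletion. An siRNA lowers, and does not remove, its target. The genotype field reads WT for the control siRNA libraries, but SF3B5 knockdown and SF3B6 knockdown for SF3B4 siRNA replicates 2 and 3, whose titles and treatment field name SF3B4. The titles were followed. They call the replicates biological without saying whether these were separate cultures, and p-values therefore reflect the spread among these libraries, which may be technical.

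Actin filaments grow mainly at one end by addition of ATP-bound monomers and are dismantled at the other. Profilins deliver monomers, thymosins sequester them, and cofilins, twinfilins and cyclase-associated proteins take filaments apart or return monomers to the pool. ARP2/3 starts branches when activated by N-WASP or by WAVE proteins, formins extend unbranched filaments, capping protein stops growth, tropomyosins and myosin II make filaments contractile, and in epithelial cells such as these the cortex is tied to the membrane by ezrin, radixin and moesin.

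The libraries had an implied 17513135 to 18525380 fragments each, read from the steps between low FPKM values of genes with 1 exon. The siRNA target SF3B4 measured 22, 17.7 and 22.3 FPKM after SF3B4 siRNA and 88.6, 92 and 93.8 FPKM after control siRNA, 22.6% of the control mean (limma adjusted p = 8.8e-05; exact two-sided permutation p = 0.1, the smallest that 3 against 3 libraries allow). Of 11 genes that are typically high in A549, 5 (AKR1C1, AKR1C2, ALDH1A1, ALDH3A1 and GPX2) stayed below 0.2 FPKM in all 6 libraries. Vimentin (VIM) was at 1.41 to 1.65 FPKM in SF3B4 siRNA libraries and 2.69 to 4.06 FPKM in control siRNA libraries. The column headers of the deposited tables name H1650, another lung cancer line, so the samples are called cultures labelled A549. Epithelial markers were high (KRT19 at 573 to 709 FPKM over the 6 libraries), 4 endothelial markers did not reach 0.2 FPKM, and of 5 leukocyte and 6 fibroblast markers only CD14 and COL1A1 reached 1 FPKM, with PTPRC and LYZ at 0 throughout. CD14 was at 4.7 to 6.59 FPKM with SF3B4 siRNA and 2.45 to 2.87 FPKM with control siRNA, and COL1A1 at 2.23 to 2.33 FPKM and 1.24 to 1.44 FPKM (log2 fold change 0.73, limma adjusted p = 0.0023), and the part of other cells in the results was not tested.

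Of the 50 actin genes, 47 were tested because 3 or more libraries held them at 1 FPKM or above. The 3 others were WASF1 (0.556 to 0.628 FPKM in SF3B4 siRNA libraries, 0.588 to 0.729 FPKM in control siRNA libraries), the formin gene DIAPH3 (0.239 to 0.323 and 0.316 to 0.439 FPKM) and VIL1, the gene of the intestinal microvillus protein villin, which was listed at 0 in 5 libraries and at 0.0418 FPKM in control siRNA replicate 3. Across the 50, levels per length ran from the thymosin gene TMSB10 (mean of 5666 FPKM over all 6 libraries), PFN1 (960 FPKM) and ACTB (663 FPKM) down to CFL2 (1.49 FPKM), TWF1 (1.24 FPKM) and the 3 untested genes. Within families, 1 gene usually carried most of the signal: PFN1 over PFN2, TWF2 over TWF1, CFL1 (119 FPKM) over DSTN (48.1 FPKM) and CFL2, and MYL12B (333 FPKM) over MYL12A (52 FPKM).

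**Figure D1:**
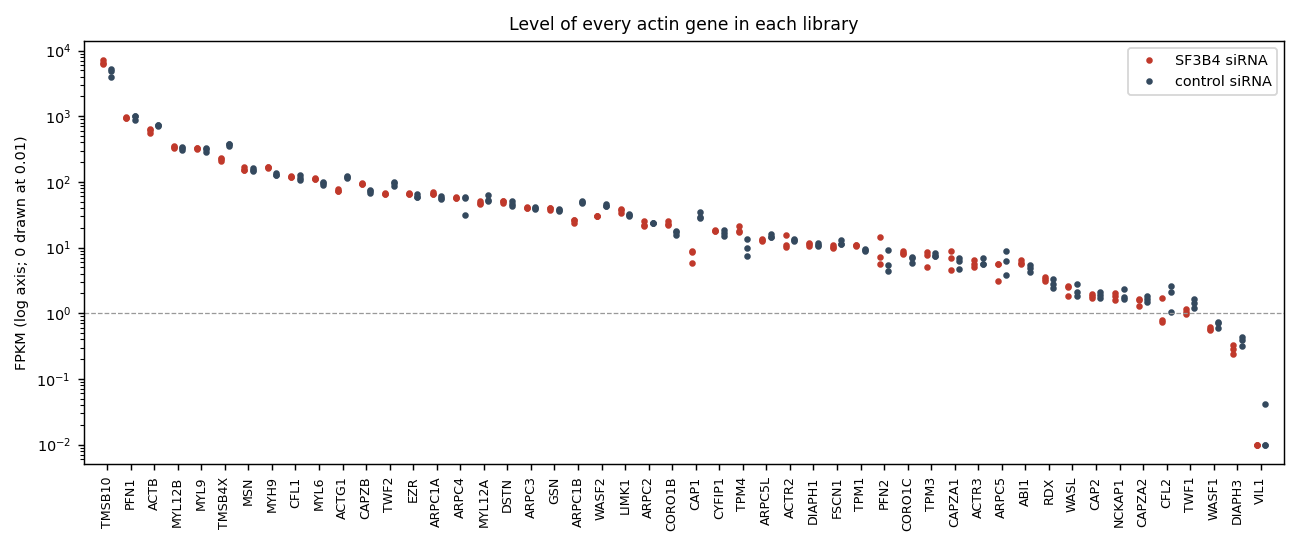
FPKM (log axis) of each of the 50 actin genes in the 3 SF3B4 siRNA libraries (red, left of each pair) and the 3 control siRNA libraries (dark, right), ordered by the mean over all 6; values of 0 are drawn at 0.01 and the dashed line marks 1 FPKM. TMSB10 is at the top, WASF1, DIAPH3 and VIL1 lie below the line, and CAP1 shows the widest gap between groups.

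With SF3B4 siRNA, 7 of the 47 tested genes fell and 9 rose (limma on log2(FPKM + 0.1), Benjamini-Hochberg over all 9685 tested genes, threshold 0.05). These 16 genes are 34.0% of those tested. Across all tested genes 34.1% were called, 16.0% higher and 18.1% lower, so the share of called actin genes was close to that of the transcriptome. Their median log2 fold change was 0.03, against -0.00 over all tested genes, and the median size of the change was 0.21, against 0.25. Calls whose log2 fold change exceeded 0.5 in size numbered 7 among the actin genes, a class that held 18.9% of all tested genes: CAP1, ARPC1B, TMSB4X, ACTG1, WASF2 and TWF2 were lower and TPM4 was higher. Libraries of the 2 groups did not overlap in 22 of the 47 genes, beside 49.5% of all tested genes. When a fold change beyond 1.2 was required (limma, treat), ACTB and all 9 genes that rose lost their calls (adjusted p = 0.080 to 1), and with no filter on low values ARPC1A, CORO1C, TPM1, TPM4 and MYL6 did (0.053 to 0.11). Without SF3B4 siRNA replicate 3 or control siRNA replicate 3, 4 actin genes were called higher, and without SF3B4 siRNA replicate 1, 5 were. In bulk RNA, fewer transcripts per cell and fewer cells of a kind that carries them cannot be told apart.

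**Figure D2:**
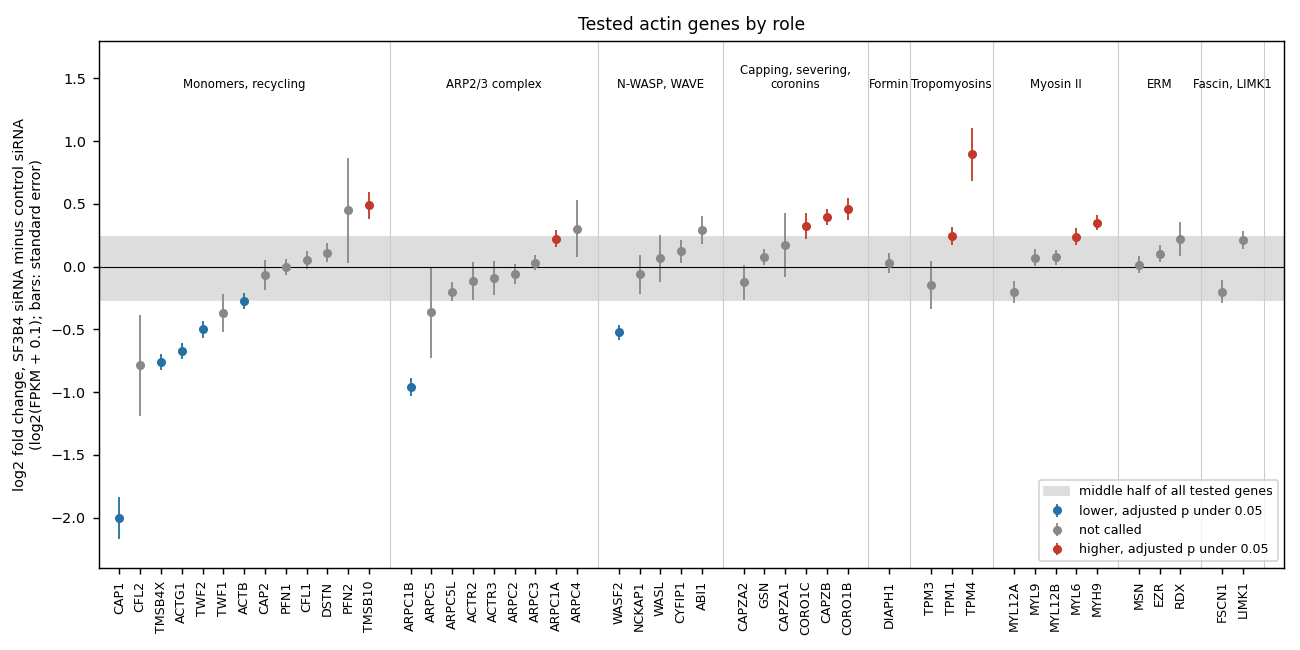
Log2 fold change (SF3B4 siRNA minus control siRNA, on log2(FPKM + 0.1)) of the 47 tested actin genes by role; bars are standard errors, colours mark calls at adjusted p under 0.05 and the grey band holds the middle 50% of all tested genes. CAP1 at -2.0 lies far below the others, and TPM4 at 0.89 is the highest.

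The 3' UTR stretches shown next hold 1 or both of a pair of heptamers that were more frequent in transcripts that fell across this data set. The heptamers GCCTTCA and CCTTCAA were picked in earlier work on these libraries from the genes that fell, actin genes included, so what follows describes and does not test them. Sites were searched on the sense strand of 1 annotated 3' UTR per gene (GENCODE 29, GRCh38). Of the 47 actin genes searched, 9 carried a site (19.1%), against 17.4% of all 8380 searched genes. The 3 carriers that fell were CAP1 (chr1:40071656-40071685, plus strand), ARPC1B (chr7:99394496-99394525, plus strand) and WASF2 (chr1:27407928-27407957, minus strand). Moesin (MSN, chrX:65740548-65740577, plus strand) and radixin (RDX, chr11:110229441-110229470, minus strand) carry both heptamers overlapping as 8 bases and were not called. Capitals mark the site within 30 bases, written 5′ to 3′ as DNA.
CAP1: cacagctacctGCCTTCActgaaatatacc
ARPC1B: aggaatatgttGCCTTCAtcctagctgctg
WASF2: gttccctctttCCTTCAAgtgcctgttgca
MSN: ggggaaatggtGCCTTCAAgaccttcacca
RDX: caataaagtgacaaaagctcatGCCTTCAA

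The site lay 134 bases into the 1116-base 3' UTR of CAP1 and 18 bases into the 327-base 3' UTR of ARPC1B. In RDX it ended at the last base of the annotated UTR. The whole CAP1 3' UTR, site included, lies in exonic bases shared with PPT1, a gene on the other strand described below. The other carriers, ACTR2, ACTR3, CYFIP1 and DIAPH1, were not called and had log2 fold changes of -0.12, -0.09, 0.12 and 0.03, ACTR2 with 2 sites and ACTR3 with 3. A site of ACTR3 also held both heptamers overlapping, as in MSN and RDX. The 9 carriers thus comprised 3 genes that fell, 0 that rose and 6 without a call, with a median log2 fold change of -0.09. Among the 38 actin genes without a site, 4 fell and 9 rose, with a median of 0.07. Over all searched genes, the medians were -0.20 in 1458 carriers and 0.02 in 6922 others. The shares that fell were 33.3% and 10.5% of actin genes with and without a site, near the 35.4% and 15.2% over all searched genes. Carriers had longer 3' UTRs, with a median of 2428 bases in actin genes with a site and 815 bases in those without.

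**Figure D3:**
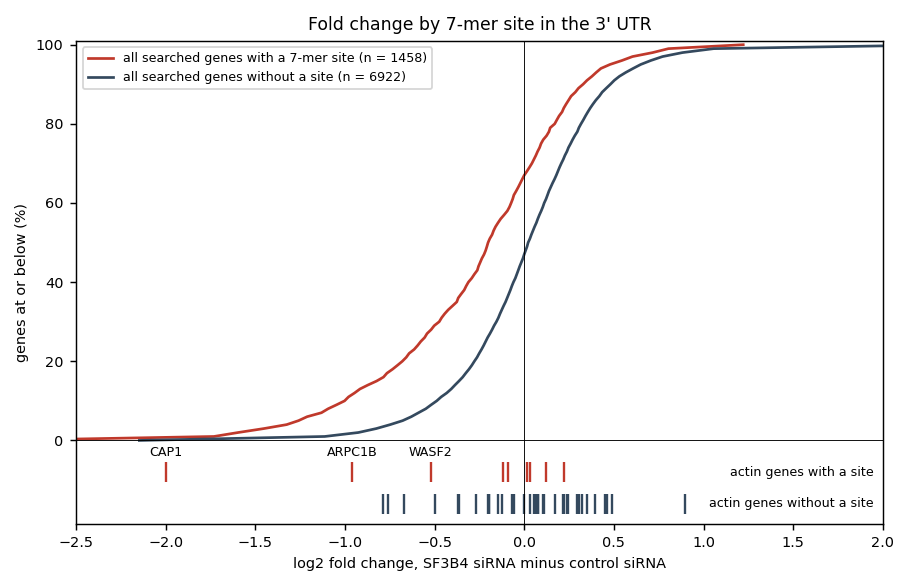
Cumulative share of genes (%) by log2 fold change (SF3B4 siRNA minus control siRNA) for all searched genes with (red) and without (dark) a 7-mer site in the 3' UTR; ticks below show the 9 actin genes with a site and the 38 without. CAP1, ARPC1B and WASF2 lie at -2.0, -0.96 and -0.52, and the other 6 carriers lie between -0.12 and 0.22.

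Among actin monomers and the proteins that handle them, CAP1, TMSB4X, ACTG1, TWF2 and ACTB fell and TMSB10 rose, 6 of 13 genes (46%, beside 34.1% of all tested genes). CAP1 (ENSG00000131236, GRCh38 chromosome 1, 40040233 to 40072649, plus strand) encodes cyclase-associated protein 1, which works with cofilin to take filaments apart and recharges monomers with ATP. Its level was 8.56, 5.74 and 8.74 FPKM in SF3B4 siRNA replicates 1 to 3, against 34.4, 28.2 and 29.3 FPKM in control siRNA replicates 1 to 3. Every SF3B4 siRNA library lay below every control siRNA library, with the lowest value in replicate 2. The mean was 25.1% of the control mean, or -2.0 ± 0.17 (SE) as log2 fold change (limma adjusted p = 0.00034; exact two-sided permutation p = 0.1, the smallest possible), which ranked 11th from the lowest among the 9685 tested genes, behind SF3B4 itself at 9th.

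CAP1 shares part of its exons with a neighbour. PPT1, a lysosomal thioesterase gene on the minus strand (chromosome 1, 40071461 to 40097727), overlaps 31.2% of the exonic bases of CAP1, and the strand setting of the counting is not given in the sources used here, so reads of the shared stretch cannot be assigned with certainty. PPT1 was at 33.6, 34.4 and 35.1 FPKM in SF3B4 siRNA libraries and at 32.2, 26.3 and 29.6 FPKM in control siRNA libraries, with a log2 fold change of 0.23 ± 0.08 (SE) that was not called (adjusted p = 0.068) and was called without control siRNA replicate 1 (log2 fold change 0.30, adjusted p = 0.025). The ratio of CAP1 to PPT1 was 0.255, 0.167 and 0.249 in SF3B4 siRNA libraries and 1.07, 1.07 and 0.99 in control siRNA libraries. The pseudogenes CAP1P1 and CAP1P2 together were listed at 1.62, 0.666 and 0.766 FPKM with SF3B4 siRNA and at 3.62, 3.68 and 3.51 FPKM with control siRNA, lower in the same libraries as CAP1. CAP2, the paralogue typical of muscle and brain, was at 1.81, 1.7 and 1.97 FPKM with SF3B4 siRNA and at 2.11, 1.72 and 1.93 FPKM with control siRNA, and was not called (adjusted p = 0.71). With CAP1 lower, the CAP2 to CAP1 ratio was 0.244 ± 0.045 with SF3B4 siRNA and 0.0627 ± 0.0027 with control siRNA (SD, n = 3 each).

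The cytoplasmic actins both fell. ACTB (chromosome 7, 5527147 to 5563784), the beta-actin gene often used as a loading control, was at 612, 636 and 555 FPKM with SF3B4 siRNA and at 702, 746 and 725 FPKM with control siRNA. ACTG1 (chromosome 17, 81509971 to 81523847), the gamma-actin gene, was at 72, 74 and 78.4 FPKM with SF3B4 siRNA and at 114, 120 and 123 FPKM with control siRNA. In neither gene did the groups overlap, and the decrease was larger for ACTG1 (log2 fold change -0.67 ± 0.06, SE; limma adjusted p = 0.00034) than for ACTB (-0.27 ± 0.06; adjusted p = 0.015). The ACTG1 to ACTB ratio was 0.118, 0.116 and 0.141 with SF3B4 siRNA and 0.163, 0.161 and 0.17 with control siRNA. The difference between the fold changes of the actins was not tested.

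The main thymosins, small peptides that hold monomers out of filaments, went in opposite directions. TMSB4X, the thymosin beta-4 gene (chromosome X, 12975108 to 12977227), was at 223, 207 and 229 FPKM in SF3B4 siRNA libraries and at 355, 380 and 381 FPKM in control siRNA libraries. TMSB10, the most abundant actin gene here (chromosome 2, 84905625 to 84906675), was at 6375, 7198 and 6230 FPKM with SF3B4 siRNA and at 4835, 5336 and 4021 FPKM with control siRNA. Neither gene had groups that overlapped. The log2 fold changes were -0.76 ± 0.06 for TMSB4X (SE; limma adjusted p = 2e-04) and 0.49 ± 0.11 for TMSB10 (adjusted p = 0.013). Their ratio, TMSB4X to TMSB10, was 0.0335 ± 0.0042 with SF3B4 siRNA and 0.0798 ± 0.013 with control siRNA (SD, n = 3 each).

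TWF2, encoding twinfilin 2, which caps barbed ends and binds monomers, fell to 66.5, 67.3 and 65.5 FPKM in SF3B4 siRNA libraries, against 87.2, 99.7 and 95.6 FPKM in control siRNA libraries (log2 fold change -0.50 ± 0.07, SE; adjusted p = 0.0014). Another gene on the same strand overlaps 25.4% of its exons but was listed at a mean of 0.0398 FPKM. The severing proteins stayed closer together: CFL1 (cofilin 1) was at 121 ± 1.91 and 117 ± 10.2 FPKM, DSTN (destrin) at 49.9 ± 1.2 and 46.3 ± 4.24 FPKM in SF3B4 siRNA and control siRNA libraries (SD, n = 3 each), with log2 fold changes of 0.05 ± 0.07 and 0.11 ± 0.08 (SE) that were not called. PFN1 (profilin 1) was at 958 ± 11.4 and 963 ± 74.4 FPKM, a log2 fold change of -0.00 ± 0.07. CFL2 and PFN2 varied more between replicates. CFL2, the muscle-type cofilin gene, was at 0.777, 0.746 and 1.69 FPKM with SF3B4 siRNA and at 1.06, 2.6 and 2.07 FPKM with control siRNA (log2 fold change -0.79 ± 0.40, adjusted p = 0.18). PFN2 had values of 14.3, 7.13 and 5.56 FPKM with SF3B4 siRNA and 4.43, 9.27 and 5.36 FPKM with control siRNA. TWF1 was at 0.981 to 1.16 and 1.19 to 1.64 FPKM and was not called (adjusted p = 0.096), and its pseudogenes together were listed at 187% of its own level, so its value is uncertain.

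**Figure D4:**
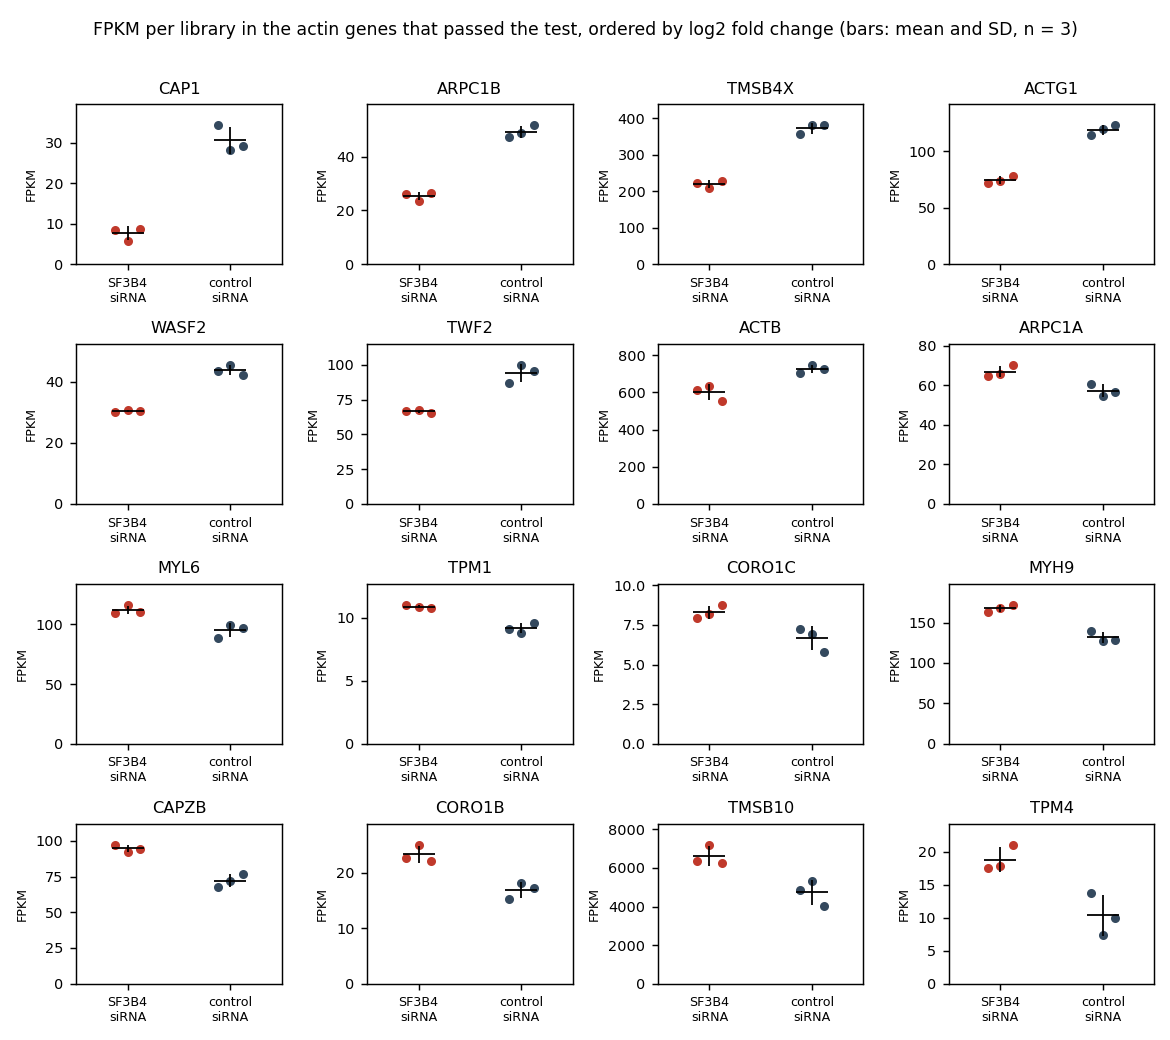
FPKM per library (points) with mean and SD (bars, n = 3) for the 16 actin genes called at adjusted p under 0.05, SF3B4 siRNA left of control siRNA, ordered from the most negative log2 fold change; all axes start at 0. In each of the 16 panels the 2 groups do not overlap, and the gap is widest in CAP1.

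In the ARP2/3 complex, 2 of 9 genes were called (22.2%, beside 34.1% of all tested genes), and they encode alternative forms of 1 subunit. ARPC1A and ARPC1B encode interchangeable versions of the ARPC1 subunit, a propeller-shaped protein at the filament contact of the complex, and their genes are neighbours on chromosome 7 (99325910 to 99366262 and 99374249 to 99394816). ARPC1B was at 26, 23.5 and 26.4 FPKM with SF3B4 siRNA, against 47.3, 49 and 51.7 FPKM with control siRNA (log2 fold change -0.96 ± 0.07, SE; limma adjusted p = 0.00016). ARPC1A was at 64.9, 65.8 and 70.3 FPKM with SF3B4 siRNA, against 60.8, 54.6 and 56.9 FPKM with control siRNA (0.22 ± 0.07; adjusted p = 0.036). Within each library ARPC1B stood at 0.4, 0.357 and 0.375 of the ARPC1A level with SF3B4 siRNA and at 0.778, 0.897 and 0.908 with control siRNA, so the groups were far apart. An annotated readthrough gene covers 58.4% of the ARPC1A exons and 32.4% of those of ARPC1B on the same strand, so both levels carry that uncertainty. The ARPC1A call was lost without any of SF3B4 siRNA replicates 1, 2 or 3 (adjusted p = 0.067, 0.072 and 0.12) and without control siRNA replicate 2 or 3 (0.10 and 0.094). It was also lost with quantile normalization (0.11), without limma's trend and robust options (0.076) and with replicate number fitted as a block (0.069). The ARPC1B call held in all 15 alternatives.

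The remaining 7 subunit genes were not called. ARPC3 was at 40.6 ± 1.09 and 39.7 ± 1.37 FPKM, ARPC2 at 22.9 ± 1.91 and 23.8 ± 0.205 FPKM, and ARPC5L at 13.1 ± 0.322 and 15 ± 0.916 FPKM in SF3B4 siRNA and control siRNA libraries (SD, n = 3 each). Pseudogenes of ARPC3 were listed at 30.9% of its level. The actin-related proteins that seed the branch, ACTR2 and ACTR3, were at 12.3 ± 2.85 and 13.1 ± 0.501 FPKM, and at 5.71 ± 0.753 and 6.08 ± 0.833 FPKM. ACTR2 had 1 high library, SF3B4 siRNA replicate 3 at 15.6 FPKM, and without it the gene was called lower (log2 fold change -0.30, adjusted p = 0.0499). ARPC4 was at 56.9, 59.5 and 56.5 FPKM with SF3B4 siRNA and at 31.3, 55.9 and 58 FPKM with control siRNA. Its log2 fold change of 0.30 (adjusted p = 0.35) was 0.02 without the low control siRNA replicate 1 (adjusted p = 0.84), and other genes overlap 28.3% of its exons. ARPC5 was at 3.14 to 5.68 and 3.8 to 9.02 FPKM.

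Of the 5 tested N-WASP and WAVE complex genes among the 50, only WASF2 was called (20%, beside 34.1% of all tested genes). It encodes WAVE2, the WAVE protein that directs lamellipodia in many cells, and lies on chromosome 1 (27404226 to 27490158). WASF2 fell to 30.1, 30.8 and 30.6 FPKM with SF3B4 siRNA, against 43.6, 45.5 and 42.4 FPKM with control siRNA (log2 fold change -0.52 ± 0.06, SE; limma adjusted p = 0.00076), and the groups lay well apart. Of its partners in the WAVE complex, CYFIP1 was at 18.2 ± 0.382 and 16.8 ± 1.79 FPKM, NCKAP1 at 1.82 ± 0.216 and 1.91 ± 0.343 FPKM, and ABI1 at 5.92 ± 0.422 and 4.83 ± 0.561 FPKM in SF3B4 siRNA and control siRNA libraries. BRK1, a small WAVE complex subunit outside the 50 genes, named after its values were seen, rose (267 ± 14.2 and 206 ± 14.9 FPKM; log2 fold change 0.37, limma adjusted p = 0.0065). CYFIP1, NCKAP1 and ABI1 were not called, although ABI1 was higher in every SF3B4 siRNA library (log2 fold change 0.29 ± 0.11, SE; adjusted p = 0.078) and was called without control siRNA replicate 1 (0.37; adjusted p = 0.040) and with quantile normalization (0.34; adjusted p = 0.036). WASL, the N-WASP gene, was at 1.83 to 2.6 and 1.82 to 2.74 FPKM (adjusted p = 0.82).

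**Figure D5:**
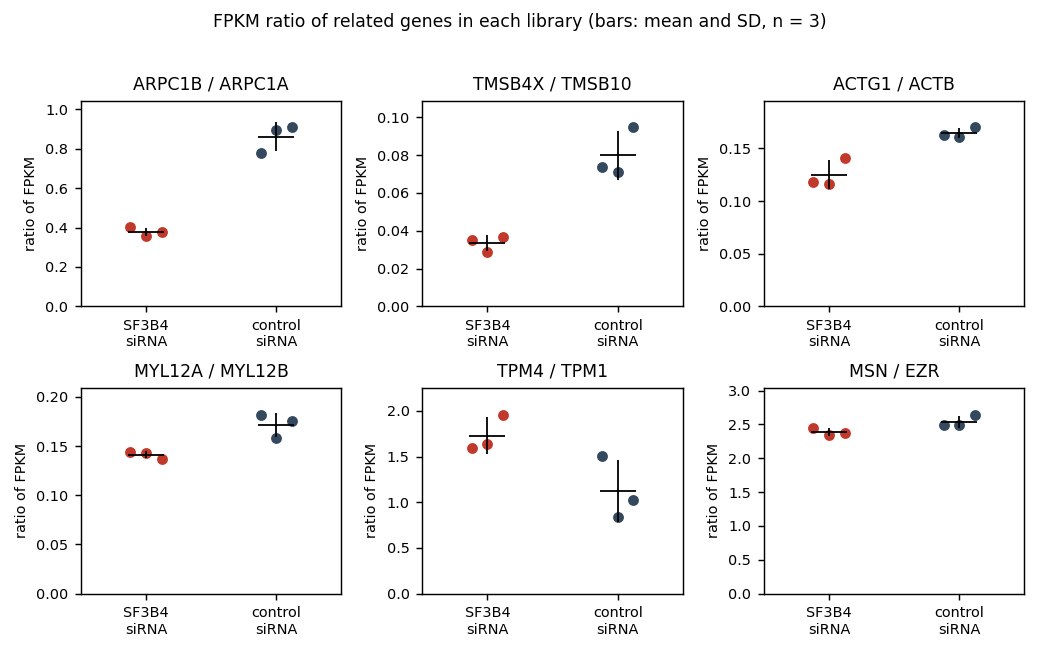
Ratio of FPKM between related genes in each library (points) with mean and SD (bars, n = 3), SF3B4 siRNA left of control siRNA, axes from 0. The ARPC1B to ARPC1A ratio is 0.378 ± 0.022 with SF3B4 siRNA and 0.861 ± 0.072 with control siRNA, and the TMSB4X to TMSB10 and ACTG1 to ACTB ratios are also lower with SF3B4 siRNA.

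Such ratios were taken for 10 pairs of related actin genes, chosen after their values were seen, and the groups did not overlap in 7. No share was computed over other gene pairs, so this count has no background and only describes these pairs. Besides the pairs given above they included MYL12A to MYL12B (0.141 ± 0.004 with SF3B4 siRNA and 0.172 ± 0.012 with control siRNA), MSN to EZR (2.39 ± 0.053 and 2.54 ± 0.09) and TPM4 to TPM1 (1.73 ± 0.2 and 1.12 ± 0.34; SD, n = 3 each). The ratios of TWF2 to TWF1, PFN2 to PFN1 and CFL1 to DSTN overlapped.

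Among the 6 tested genes of capping protein, gelsolin and the coronins, 3 rose and 0 fell. Over all tested genes 16.0% rose and 18.1% fell, and 6 genes are too few to set against these shares. CAPZB, the beta subunit of the barbed-end capping protein, rose to 97.2, 92.5 and 94.3 FPKM with SF3B4 siRNA, against 68, 71.9 and 76.6 FPKM with control siRNA (log2 fold change 0.39 ± 0.06, SE; limma adjusted p = 0.0033). The alpha subunit genes were much lower and were not called, CAPZA1 at 4.61 to 8.94 and 4.68 to 6.89 FPKM and CAPZA2 at 1.3 to 1.63 and 1.48 to 1.82 FPKM. CORO1B, a coronin gene whose product removes ARP2/3 from branches, was at 22.7, 25 and 22.1 FPKM with SF3B4 siRNA and at 15.3, 18.1 and 17.2 FPKM with control siRNA (0.46 ± 0.09; adjusted p = 0.0063). CORO1B shares 24.3% of its exons with PTPRCAP, a leukocyte gene that was listed at 0. CORO1C also rose (8.31 ± 0.409 and 6.65 ± 0.759 FPKM; adjusted p = 0.047), but its call was lost without any of SF3B4 siRNA replicates 1, 2 or 3 (adjusted p = 0.079, 0.099 and 0.14) and without control siRNA replicate 2 or 3 (0.069 and 0.12) and without limma's trend and robust options (0.057). Fitting replicate number as a block also removed the CORO1C call. GSN, the severing protein gelsolin, was at 39.3 ± 1.21 and 37.3 ± 1.12 FPKM (log2 fold change 0.08 ± 0.06, adjusted p = 0.37). The formin gene DIAPH1 was at 11.3 ± 0.524 and 11.1 ± 0.698 FPKM (adjusted p = 0.80).

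Tropomyosins, which coat filaments and decide which partners bind, rose in 2 of 3 cases, too few genes to set against the 16.0% of all tested genes that rose. TPM4 (chromosome 19, 16067021 to 16103005) was at 17.5, 17.8 and 21 FPKM with SF3B4 siRNA and at 13.7, 7.41 and 9.9 FPKM with control siRNA (log2 fold change 0.89 ± 0.21, SE; limma adjusted p = 0.018). Control siRNA libraries spread widely, and the call was lost without control siRNA replicate 3 (adjusted p = 0.053) and without SF3B4 siRNA replicate 3 (0.059). Pseudogenes of TPM4 were listed at 18.2% of its level. TPM1 was at 11, 10.9 and 10.7 FPKM with SF3B4 siRNA and at 9.11, 8.79 and 9.62 FPKM with control siRNA (0.24 ± 0.07; adjusted p = 0.036), a call that was lost when any 1 of the 6 libraries was left out (adjusted p = 0.052 to 0.11). Fitting replicate number as a block also removed the TPM1 call. TPM3 was not called (adjusted p = 0.60), and its pseudogenes together were listed at 102% of its own level.

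In nonmuscle myosin II, the heavy chain gene MYH9 rose to 163, 168 and 172 FPKM with SF3B4 siRNA, against 139, 127 and 128 FPKM with control siRNA (log2 fold change 0.35 ± 0.06, SE; limma adjusted p = 0.0037). The essential light chain gene MYL6 was at 110, 116 and 110 FPKM with SF3B4 siRNA and at 88.3, 99.8 and 96.8 FPKM with control siRNA (0.24 ± 0.07; adjusted p = 0.026), and its call was lost without any of SF3B4 siRNA replicates 1, 2 or 3 (adjusted p = 0.059, 0.083 and 0.060) and without control siRNA replicate 3 (0.056), and without limma's trend and robust options (0.064). The regulatory light chains were not called: MYL9 was at 323 ± 7.89 and 308 ± 24.4 FPKM, MYL12B at 342 ± 10.3 and 324 ± 18.2 FPKM, and MYL12A at 48.3 ± 1.96 and 55.7 ± 6 FPKM in SF3B4 siRNA and control siRNA libraries. MYL12A was lower in every SF3B4 siRNA library (log2 fold change -0.20, adjusted p = 0.11) and was called with quantile normalization (-0.27, adjusted p = 0.049). All 3 ERM genes were uncalled as well, MSN at 157 ± 8.26 and 155 ± 8.78 FPKM, EZR (ezrin) at 65.8 ± 2.05 and 61.3 ± 4.42 FPKM, and RDX at 3.3 ± 0.231 and 2.84 ± 0.497 FPKM. FSCN1, whose product bundles filaments in filopodia, was lower in every SF3B4 siRNA library (10.4 ± 0.492 and 12 ± 1.11 FPKM) without passing the test (adjusted p = 0.13). LIMK1, the kinase that inactivates cofilin, was at 38.5, 33.7 and 36.8 FPKM with SF3B4 siRNA and at 30.1, 31.6 and 32.2 FPKM with control siRNA (log2 fold change 0.21 ± 0.07). It missed the threshold at adjusted p = 0.053 and was called without SF3B4 siRNA replicate 2 (0.27; adjusted p = 0.040), after rescaling to TPM (adjusted p = 0.039) and with quantile normalization (0.040).

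A further 99 actin genes outside this group were read as context, of which 71 were tested, with 17 higher and 12 lower, 40.8% called beside the 34.1% of all tested genes. Among proteins that bind, bundle or elongate filaments, 7 of 33 were higher and 10 lower (51.5% called). The largest falls were those of VASP, a barbed-end elongation factor (10.8 ± 1.18 and 29.8 ± 1.8 FPKM in SF3B4 siRNA and control siRNA libraries; log2 fold change -1.46), COTL1, a coactosin-like protein (30.8 ± 4.33 and 60.6 ± 4.19 FPKM; -0.98), ACTN4, the crosslinker alpha-actinin 4 (91.5 ± 8.01 and 172 ± 6.17 FPKM; -0.91), and ENAH, a relative of VASP (0.609 ± 0.0737 and 1.21 ± 0.177 FPKM; -0.88). Their limma adjusted p-values were at most 0.0053, and each was called in every alternative that tested it. EVL, another relative of VASP, named after its values were seen, rose (2.8 ± 0.24 and 1.8 ± 0.05 FPKM, log2 fold change 0.58, limma adjusted p = 0.0054).

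Of 19 other nucleators and nucleation promoting factors, 4 rose and 2 fell (31.6% called, beside 34.1% of all tested genes). The formin gene FMNL1 rose (log2 fold change 0.48; 2.05 ± 0.0808 and 1.44 ± 0.115 FPKM; adjusted p = 0.013) and FMNL3 fell (-0.60; 0.857 ± 0.111 and 1.35 ± 0.128 FPKM; adjusted p = 0.016). The FMNL1 call was lost without SF3B4 siRNA replicate 2 (adjusted p = 0.051), and the FMNL3 call without SF3B4 siRNA replicate 2 or 3 or control siRNA replicate 3 (0.052, 0.055 and 0.061). The WASH complex genes WASHC3 (2.86 ± 0.47 and 1.65 ± 0.188 FPKM, adjusted p = 0.0066) and WASHC1 (1.35 ± 0.239 and 0.75 ± 0.269 FPKM, adjusted p = 0.041) rose. The other tested WASH genes were not called. WASHC2A was lower in every SF3B4 siRNA library (log2 fold change -0.39, limma adjusted p = 0.064), and WASHC2C and WASHC5 had log2 fold changes of 0.002 and 0.05. WASHC1 has near-identical copies in the genome and is uncertain, and its call was lost without SF3B4 siRNA replicate 1, 2 or 3 or control siRNA replicate 1 or 3 (adjusted p = 0.066 to 0.12).

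SRF, the transcription factor that responds to the monomer pool, and its coactivator MRTFA rose, with 37.5 ± 0.593 and 32.1 ± 1.14 FPKM for SRF (adjusted p = 0.026) and 10.4 ± 0.74 and 7.61 ± 0.318 FPKM for MRTFA (adjusted p = 0.0067) in SF3B4 siRNA and control siRNA libraries (SD, n = 3 each). The SRF call was lost without SF3B4 siRNA replicate 1, 2 or 3 or control siRNA replicate 2 or 3 (adjusted p = 0.051 to 0.093). It was also lost with replicate number fitted as a block and without limma's trend and robust options. The site that SRF binds, the CArG box, is shown for the actin genes whose promoters hold it. RefSeq promoters (GRCh38.p14, 250 bases before to 50 after the gene start) were available for 43 of the 50 genes (all but ACTB, ARPC1B, FSCN1, MYL9, PFN2, VIL1 and WASF2), and 2 of them (4.65%) held a match, a motif whose reverse complement is itself, so that 1 search covers both strands, against 1.29% of all 27305 promoters. They were ACTG1 (chr17:81512874-81512903, minus strand), which fell, and TPM4 (chr19:16067355-16067384, plus strand), which rose. Capitals mark the match.
ACTG1: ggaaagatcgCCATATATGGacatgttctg
TPM4: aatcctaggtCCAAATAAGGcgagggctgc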

How the data were processed

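Per the labels' protocols, total RNA was made into libraries with a kit for Illumina sequencing. The authors deposited 1 table of FPKM per library (fragments scaled by transcript length and library total). Per the submitters' processing notes, HISAT2 2.0.4, StringTie 1.3.0 and GRCh38 were used, without roles or order. Not given in the sources used here are the annotation, strand setting, siRNA sequence, dose and time. Genes reaching 1 FPKM in 3 or more libraries were tested with limma 3.58.1 (R 4.3.3; intensity trend, robust, two-sided) on log2(FPKM + 0.1), a scale that understates changes of low genes. Depth was inferred from single-exon genes, where 99.1% to 99.5% of low values fell no more than 0.02 from a whole fragment number; fragment numbers speak to counting error only. A gene name table gave symbols (49659 identifiers matched) and GENCODE 29 gave positions (50111 matched), which may differ from the authors' annotation.

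The actin genes and lists were chosen with earlier results of these data known. The genes named were ACTB, ACTG1 and CAP1, called genes with a log2 fold change of at least 0.5, the largest change in each role, and up to 4 called genes per context list. Every other actin gene is given once. Further context genes set beside their relatives were added after their values were seen. On data simulated for this comparison (9399 genes), 51 of 70 changes of 1.5-fold, 66 of 70 of 2-fold and 55 of 55 of 4-fold were recovered, with 17 false calls. The simulation gave all genes the same spread beyond counting error and changed only a small part of them. Its recovery may therefore not hold for genes that vary widely between libraries. Alternatives covered the pseudocount, filter, scaling, test options, replicate block, each library left out, and actin genes with overlapping exons or pseudogenes. Results of 1 context list and 1 marker gene are not reported here.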

Additional observations from a re-analysis of the deposited data

How the results depend on the processing

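Over 15 alternative fits, no called actin gene changed direction, 6 kept their call throughout (CAP1, ARPC1B, TMSB4X, ACTG1, WASF2 and TWF2), 10 lost it at least once, and 4 of 31 uncalled ones gained one. A minimum fold change of 1.2 left 0 actin genes higher (limma, treat), and 420 genes higher and 693 lower among all genes, with 4 higher and 6 lower among the other actin genes. Without a filter on low values 4 actin genes were higher. At a mean FPKM of at least 5, 1027 genes were higher and 940 lower among all genes, 7 other actin genes were lower, and the median log2 fold change of the actin genes was 0.062. Quantile normalization gave a median of -0.0026. Without the 12 actin genes with overlapping exons or sizeable pseudogenes, 5 were higher and 4 lower. Leaving out 1 library gave 4 to 9 actin genes higher (5 without SF3B4 siRNA replicate 1, 4 without SF3B4 siRNA replicate 3 and 4 without control siRNA replicate 3) and 7 to 8 lower, a median of 0.0088 to 0.060, 12 to 21 other actin genes higher and 9 to 14 lower, 1094 to 1492 genes higher and 1331 to 1604 lower among all genes, and log2 fold changes of -2.11 to -1.81 for CAP1 and -2.21 to -2.04 for SF3B4. Replicate numbers are shared between groups, and deviations of same-numbered libraries correlated at -0.08, 0.02 and -0.12. With 3 libraries per group, such correlations cannot show whether same-numbered cultures were handled together. With the replicate block 6 actin genes were higher and 7 lower, 1290 and 1537 among all genes. No scaling moved the median of all genes by over 0.1. FPKM give no direct counts, and at the inferred depth TWF1, the scarcest of the 47 tested actin genes by FPKM, held 69.8 to 117 fragments per library.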
